A study of Mus musculus with 80 samples.

Results

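Gluconeogenesis is the making of new glucose from lactate, glycerol and amino acids, by which the liver keeps blood glucose up when no food arrives. The route runs backwards through glycolysis except at a few steps that need enzymes of their own, and the genes of these enzymes are classical targets of glucagon, glucocorticoids and insulin. The 7 genes described here were taken by symbol from the table of gene counts, out of 78275 listed genes, and all 7 were among the 21187 genes with enough counts to be tested. Pcx encodes pyruvate carboxylase, which makes oxaloacetate from pyruvate in mitochondria, and Pck1 the cytosolic phosphoenolpyruvate carboxykinase, which turns oxaloacetate into phosphoenolpyruvate. Fbp1 encodes fructose-bisphosphatase, and G6pc1 the catalytic subunit of glucose-6-phosphatase, which frees glucose at the end of the pathway. Slc37a4 encodes the transporter that carries glucose 6-phosphate into the endoplasmic reticulum, where that last enzyme works. Ppargc1a (PGC-1α) and Crtc2 encode coactivators, proteins that raise transcription through DNA-binding factors. CRTC2 enters the nucleus when glucagon raises cyclic AMP and acts there with CREB, and PGC-1α acts with HNF4α, FOXO1 and nuclear receptors.

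The livers came from male and female C57BL/6J mice, an inbred strain, bought at an age of 8 to 12 weeks, held in groups on chow and sampled in constant darkness after 10 days of light–dark cycles. Control mice were fed ad libitum throughout, and fasted mice lost their food at circadian time (CT) 10. Livers were taken at 10 times, 4 h apart, the first at CT8 and the last at CT44. Each time had 2 males and 2 females of each treatment, which makes 80 libraries with 1 mouse in each. The fast had thus lasted 2 h at CT12 and 34 h at CT44, and the mice named fasted were still fed at CT8. The titles of the libraries gave treatment and sex. Their further labels name another sex in 40 libraries and another treatment in 40.

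Libraries held 25534901 to 59927771 gene counts, and the smallest count of any of the 7 genes in a library was 175, for Ppargc1a. Levels are given as CPM, library-scaled counts per 1e6 with TMM factors. Differences are log2 of fasted over control, with the standard error (SE) and the adjusted p of edgeR's quasi-likelihood test, called when that p was under 0.05. Among markers of cell types, the hepatocyte gene Alb had at least 1210990 counts in every library, whereas Prss2 and Pnlip of the pancreas were at 0 in 75 and 77 of 80 libraries. Of the other pancreas and fat markers, Cela1 had 52 to 1101 counts and was at 0 in no library. Adipoq and Plin1 were at 0 in 39 and 55 libraries. The fasting marker Fgf21 had a mean log2 difference of 3.95 and Srebf1, a regulator of lipid synthesis, one of -3.13. The ribosomal RNA gene Rn18s-rs5 took 31.3% of the counts of control CT8 female 2 and at most 4.88% in the other 79 libraries. Fasted CT40 female 2 stood apart from the other 3 mice of its group in 3 of the 7 genes, and each effect at CT40 named for a gene is given with and without it. The same 6 genes passed at CT40 in both cases. In bulk liver, fewer cells of a type and less RNA per cell cannot be told apart.

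Sequences before the start sites are shown for Pck1 and Ppargc1a, whose levels had the most alike course among the 7 genes, for G6pc1, whose effect fell back during the fast, and for both start sites of Pcx, whose first exon bins changed unevenly. They are RefSeq sequences of the mouse build GRCm38.p6, older than the build GRCm39 that the labels name, and hold the 250 bases before the start site, read along the gene. Pck1 lies at chr2:173152823-173153072 on the plus strand and Ppargc1a at chr5:51567726-51567975 on the minus strand. G6pc1 lies at chr11:101367466-101367715 on the plus strand, and the upstream and downstream starts of Pcx at chr19:4510222-4510471 and chr19:4594069-4594318 on the plus strand. Capitals mark any motif that was searched for, on either strand.
Pck1: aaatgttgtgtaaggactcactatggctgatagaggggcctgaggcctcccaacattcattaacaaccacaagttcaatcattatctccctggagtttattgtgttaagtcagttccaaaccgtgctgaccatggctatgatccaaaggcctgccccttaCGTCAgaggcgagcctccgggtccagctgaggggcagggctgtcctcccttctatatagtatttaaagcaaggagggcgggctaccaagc
Ppargc1a: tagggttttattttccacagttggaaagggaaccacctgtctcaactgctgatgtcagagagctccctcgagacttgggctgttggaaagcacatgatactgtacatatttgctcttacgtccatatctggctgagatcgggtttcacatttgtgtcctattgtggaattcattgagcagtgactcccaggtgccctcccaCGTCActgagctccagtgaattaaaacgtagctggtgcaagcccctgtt
G6pc1: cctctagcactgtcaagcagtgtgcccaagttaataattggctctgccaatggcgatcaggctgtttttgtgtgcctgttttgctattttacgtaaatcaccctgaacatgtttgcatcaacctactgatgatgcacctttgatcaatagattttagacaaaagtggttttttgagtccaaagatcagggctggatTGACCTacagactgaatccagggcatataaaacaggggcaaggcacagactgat
Pcx upstream: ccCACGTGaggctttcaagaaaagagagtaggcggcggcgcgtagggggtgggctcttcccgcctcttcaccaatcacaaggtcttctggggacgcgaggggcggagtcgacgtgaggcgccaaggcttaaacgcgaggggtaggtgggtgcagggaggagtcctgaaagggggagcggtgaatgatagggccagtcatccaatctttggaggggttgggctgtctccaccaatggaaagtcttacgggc
Pcx downstream: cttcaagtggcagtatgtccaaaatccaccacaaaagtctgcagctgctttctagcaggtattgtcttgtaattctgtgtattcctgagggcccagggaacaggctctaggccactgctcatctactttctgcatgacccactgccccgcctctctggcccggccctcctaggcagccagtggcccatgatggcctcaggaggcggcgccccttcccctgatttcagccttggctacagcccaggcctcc

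Of the 7 genes, 6 had such a window, 9 windows in all, and Crtc2 had none. The search covered the 250 bases before and the first 50 bases after each start. The core TGACG of the cyclic AMP response element, the site that CREB binds, began at position -90 in Pck1 and -49 in Ppargc1a, counted from the start site, and was present in 2 of the 3 windows of Slc37a4. It was held by 20.8% of all 32851 windows. The whole element TGACGTCA, which contains that core, was in none of the 9 windows and in 1.79% of all. The nuclear receptor core AGGTCA was in the window of G6pc1 at position -54, in the downstream window of Pcx behind its start, and in 1 window of Slc37a4, against 16.3% of all. The E-box CACGTG was in the upstream window of Pcx, against 7.15% of all. The FOXO motifs TGTTTAC and TGTTTAT were in none of the 9 windows, against 3.65% and 4.6% of all, and the window of Fbp1 held none of the motifs.

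During the fast, 6 of the 7 genes were higher than in fed livers, and Fbp1 did not pass. Averaged over CT12 to CT44, Pck1 had a log2 difference of 1.80 (SE 0.08, adjusted p = 5.37e-23) and Ppargc1a one of 1.73 (SE 0.12, adjusted p = 1.29e-17). G6pc1 followed with 0.89 (SE 0.10, adjusted p = 3.42e-11), Slc37a4 with 0.86 (SE 0.07, adjusted p = 3.99e-14) and Pcx with 0.78 (SE 0.04, adjusted p = 3.9e-21). Crtc2 had 0.50 (SE 0.03, adjusted p = 2.03e-20), and Fbp1 0.02 (SE 0.05, adjusted p = 0.79). The folds ran from 1.41 for Crtc2 to 3.48 for Pck1 among the genes that passed. The median of the 5 enzyme and transporter genes was 0.86 and that of all genes tested -0.02. Of all genes tested, 62.5% passed in either direction and 29.5% as higher and 32.9% as lower in fasted livers. Subtracting the CT8 difference, an alternative added once the values were known, gave G6pc1 a mean effect of 0.69 (adjusted p = 0.0942), while the other 5 genes still passed, against 10.7% of all genes.

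The genes first passed at different times, which were not compared by a test. At CT12, 2 h after food was removed, Pck1 and Crtc2 passed, against 0.92% of all genes that passed as higher. At CT16, 6 h into the fast, G6pc1, Pcx and Ppargc1a passed as well, 5 of 7 against 11.5%. At CT20, Slc37a4 was added and 6 of 7 passed, against 17.5%. Later, 6 passed at CT24, 4 at CT28, 5 at CT32, 4 at CT36, 6 at CT40 and 5 at CT44, against 12.2%, 9.88%, 8.4%, 12.8%, 18.7% and 18.7% of all genes. Pck1 and Crtc2 passed at all 9 times, as did 0.293% of all genes, but not in every fit. In the fits that each left out a replicate, Pck1 passed in 2 of 4 at CT28, CT32 and CT36, and Crtc2 in 1 of 4 at CT28. At CT28 Pck1 was also lost with no sex term (adjusted p = 0.0874) and Crtc2 with no low-count filter (adjusted p = 0.069). At CT8, when all mice were fed, none of the 7 genes passed the edgeR test or DESeq2, against 1.33% of all genes in either direction, but 2 of the 7 had an unadjusted p under 0.05. The log2 difference at CT8 was 0.66 for Pck1 (unadjusted p = 0.0103, adjusted p = 0.184) and 0.23 for Crtc2 (unadjusted p = 0.00954, adjusted p = 0.177). With that difference subtracted, Pck1 had 0.78 at CT12 (adjusted p = 0.443) and Crtc2 0.23 (adjusted p = 0.527), against 0% of all genes that passed as higher, and at CT16, of the 5 genes, only Pck1 (1.57, adjusted p = 0.00179) and G6pc1 (1.61, adjusted p = 0.00548) passed, against 6.72% of all genes. Without male replicate 1 the value of Pck1 at CT12 was 1.58 (adjusted p = 0.108) and without male replicate 2 it was 1.32 (adjusted p = 0.276), and both fits lost Crtc2 as well. In males alone Pck1 had 0.45 at CT12 (adjusted p = 0.90) and Crtc2 0.30 (adjusted p = 0.723), and neither passed, while in females alone both passed together with G6pc1 (1.66, adjusted p = 0.025) and Ppargc1a (2.02, adjusted p = 0.0229). Whether the effect at CT12 differed between the sexes was not tested.

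**Figure D1:**
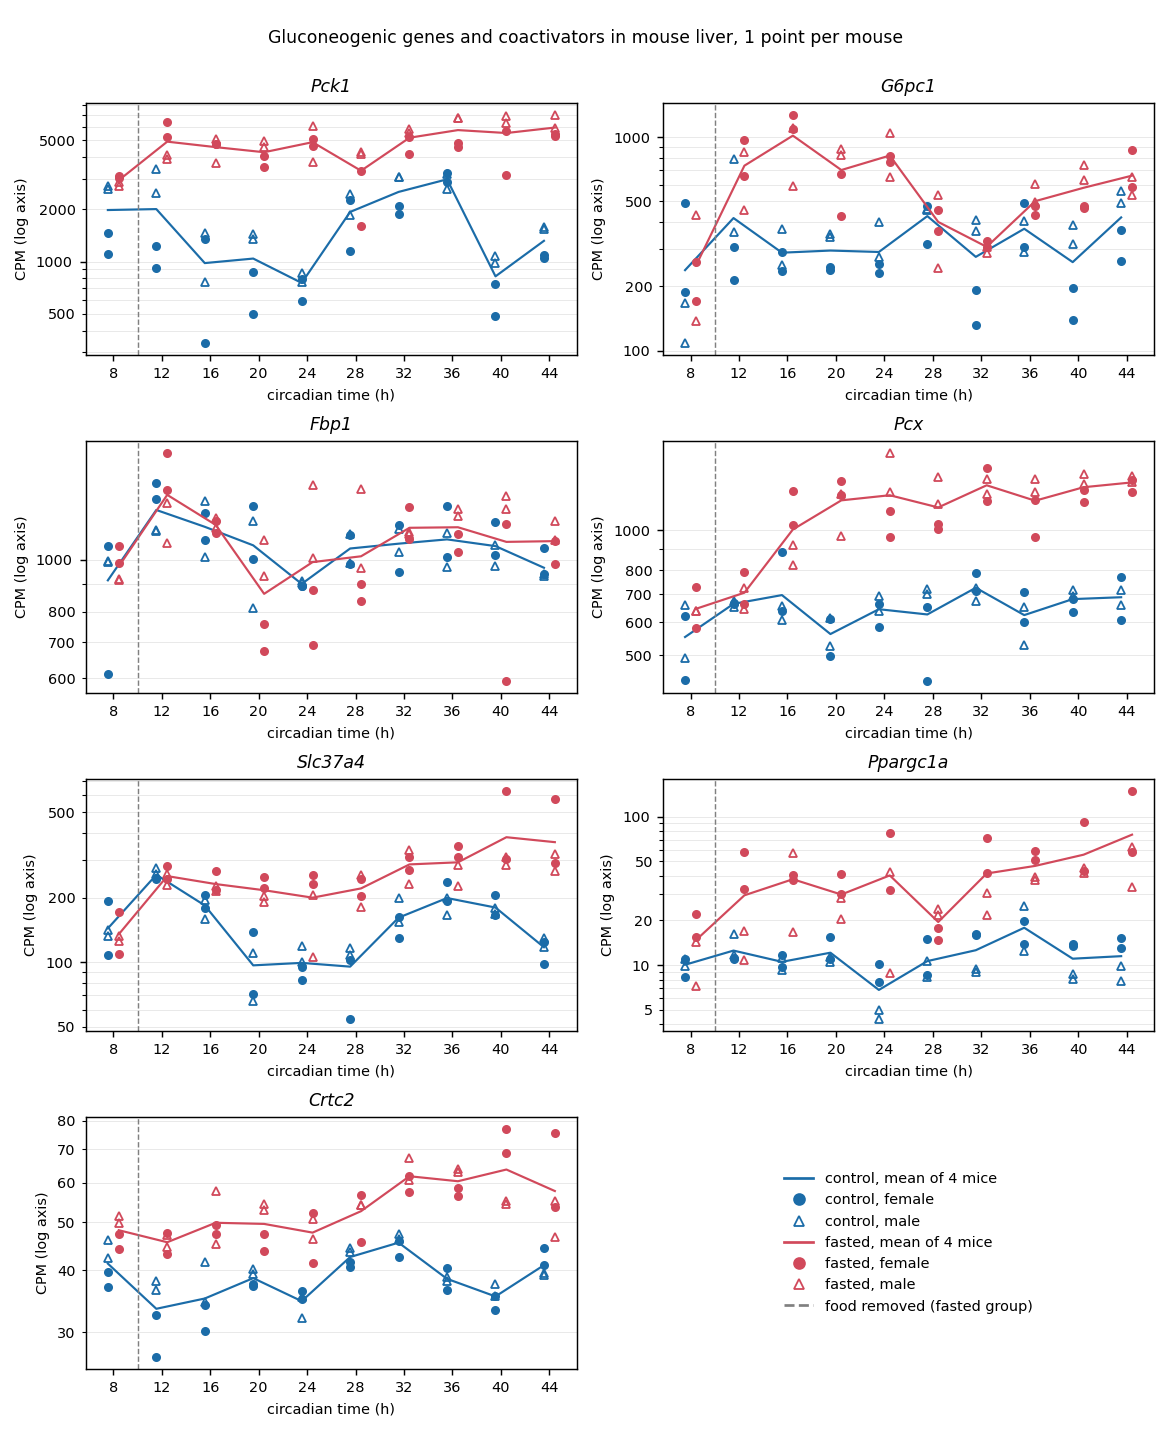
Level of each gene in CPM, on log axes, against circadian time in h. Each point is 1 mouse (filled circles, females; open triangles, males), lines join the means of 4 mice, control in blue and fasted in red, and the dashed line marks the removal of food at CT10. Control Pck1 lies at 753 CPM at CT24 and 2978 CPM at CT36 while fasted Pck1 is above both in the mean at every time from CT12, and fasted G6pc1 falls back among the controls at CT28 and CT32.

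Pck1, the gene with the largest mean effect of the 7, spanned a wide range of means in control livers. Control livers had 753 ± 113 CPM (SD, n = 4) at CT24, their lowest mean, and 2978 ± 302 CPM (SD, n = 4) at CT36, their highest. Fasted livers from CT12 on had 3338 ± 1236 CPM (SD, n = 4) at CT28 and 5922 ± 787 CPM (SD, n = 4) at CT44. The lowest fasted mean was thus above the highest control mean. At CT24 the control mice had 796 and 595 CPM in the females and 861 and 759.5 CPM in the males. In the fasted group the values were 5073 and 4658 CPM in the females and 6050.1 and 3729 CPM in the males, and the groups were far apart. The log2 difference at CT24 was 2.70. At CT28, 4 h later, the control mice had 1156 and 2277 CPM in the females and 1849 and 2445 CPM in the males. Their fasted counterparts had 1598 and 3317 CPM in the females and 4159 and 4277 CPM in the males, and the lowest of them lay inside the control range. The log2 difference had come down to 0.75, the smallest of the 9, and the largest was 2.76 at CT40, or 2.54 without fasted CT40 female 2, below the 2.70 of CT24. All 4 fasted mice lay above all 4 control mice at 8 of 9 times. Of all genes tested, 3.11%, 9.57%, 15%, 9.97%, 9.52%, 9.3%, 11.1%, 12.5% and 13.9% separated in that direction at the 9 times from CT12 to CT44.

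G6pc1 passed at 4 of 9 times, 3 of them in the first night and at dawn. At CT16 control livers held 291 and 235 CPM in the females and 251 and 373 CPM in the males. The fasted mice had 1278 and 1093 CPM in the females and 594 and 1108 CPM in the males, all above the controls. The log2 difference of 1.81 at CT16 was the largest of G6pc1. It was 1.24 at CT20 and 1.52 at CT24, then -0.09 at CT28 and 0.29 at CT32, where the test did not pass and the groups overlapped. At CT28 the control mice had 316 and 477 CPM in the females and 456 and 459 CPM in the males. The fasted mice had 365 and 458 CPM in the females and 536 and 244 CPM in the males, on both sides of the controls. In the second night G6pc1 passed at CT40, with 1.23 and, without fasted CT40 female 2, with 1.24. At CT44 it had 0.69 and lay at the threshold (adjusted p = 0.0508), passing with DESeq2 size factors (adjusted p = 0.0433), upper quartile scaling (adjusted p = 0.0492), by DESeq2 (adjusted p = 0.0297) and in females alone (1.22, adjusted p = 0.0123). The mean of control livers stayed between 259.7 and 427 CPM from CT12 on, whereas that of fasted livers ran from 306 CPM at CT32 to 1018 CPM at CT16. At CT12 the difference was 0.92 (adjusted p = 0.088), which passed by DESeq2 (0.93, adjusted p = 0.0317). The groups did not overlap at 4 of 9 times, with fasted above control each time. At those times, CT16, CT20, CT24 and CT40, 9.57%, 15%, 9.97% and 12.5% of all genes separated in that direction.

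Slc37a4, the partner of G6pc1 in the endoplasmic reticulum membrane, was the last of the 6 to pass. At CT12 control livers had 255 ± 13.7 CPM (SD, n = 4) and fasted livers 252 ± 21.5 CPM (SD, n = 4), with a log2 difference of -0.02. The difference of 0.33 at CT16 did not pass (adjusted p = 0.306), but did so with no low-count filter (adjusted p = 0.0498). All 4 fasted mice (216 to 266 CPM) were then above all 4 control mice (158 to 205 CPM), against 9.57% of all genes. By CT20 the control mice had 71.5 and 138 CPM in the females and 66.2 and 111 CPM in the males. Fasted livers of that time had 249 and 222 CPM in the females and 190.4 and 204 CPM in the males, all above the controls. From CT12 to CT20 the mean went from 255 to 96.7 CPM in fed livers and from 252 to 216 CPM in fasted livers. The difference was 1.16 at CT20 and 1.23 at CT28, and 1.60 at CT44, the largest. At CT44 the fasted mice had 575 and 288 CPM in the females and 266 and 320.3 CPM in the males. The first female stood above the other 3, which themselves exceeded all 4 control mice (98.0 to 129 CPM). At CT40 the fasted mice had 304 and 631 CPM in the females and 309.7 and 285 CPM in the males, and without the second female the log2 difference of 1.05 became 0.76 (adjusted p = 0.00846).

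Pcx, at the entry of the pathway, passed at each of the 8 times from CT16 on. Its log2 difference was 0.09 at CT12, 0.52 at CT16 and 1.07 at CT20, and then lay between 0.82 and 0.92 at the 6 times up to CT44. At CT40 it was 0.89, and 0.93 without fasted CT40 female 2. At CT12 control livers held 664 and 668 CPM in the females and 674 and 653 CPM in the males. In the fasted group the values were 793 and 664 CPM in the females and 724 and 647 CPM in the males, overlapping the controls. At CT20 the control mice had 497 and 612 CPM in the females and 526 and 614 CPM in the males. Their fasted counterparts had 1216 and 1316 CPM in the females and 966 and 1222 CPM in the males, all above the controls, as at 7 of 9 times. At those 7 times, 9.3% to 15% of all genes separated in that direction. The SE of 0.12 at a single time was the smallest among the enzymes.

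Pcx was also 1 of 2 genes whose exons did not change evenly. The authors' table of exon bins allowed each bin to be compared with its whole gene in 64 libraries, 8 times without CT40, where 3 columns followed other libraries than their names say. By Simes' method, Pcx (adjusted p = 3.73e-42) and Slc37a4 (adjusted p = 3.63e-07) passed, and Pck1, G6pc1, Fbp1, Ppargc1a and Crtc2 did not (adjusted p of 0.316 or more). Of 13647 genes tested, 12.1% passed. Relative to the gene, Pcx bins 8, 9 and 10 rose by 0.63, 0.56 and 0.39 on the log2 scale and bins 2, 3 and 4 fell by 0.62, 0.42 and 0.41, bin 2 with means of only 6.34 counts in fasted and 7.53 in control livers, while the differences of bins 11 to 32 lay between -0.07 and 0.03 and did not pass. In raw counts, bins 3 and 4 had means of 680 and 881 in control and 684 and 891 in fasted livers, whereas bins 8 and 9 went from 79.3 and 187 to 252 and 541. The rise of Pcx thus showed in bins 8 and 9 and in the body of the gene but not in the mean count of bins 3 and 4.

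**Figure D2:**
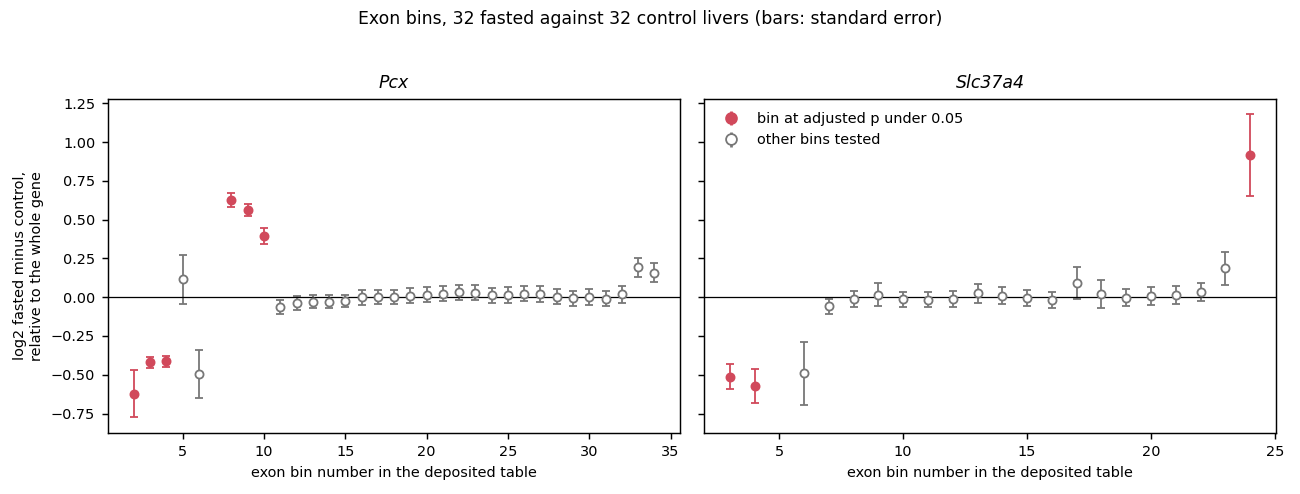
Log2 difference of each exon bin between 32 fasted and 32 control livers, relative to the whole gene (vertical axis), against the number of the bin in the deposited table (horizontal axis). Points are bins with their standard error, and filled red points are bins with an adjusted p under 0.05. In Pcx, bins 2, 3 and 4 lie below 0 and bins 8, 9 and 10 above it, and in Slc37a4 bins 3 and 4 lie below 0 and bin 24 above it.

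Like the level of the gene, the shares of bins 3, 4, 8 and 9 overlapped between groups at CT12 and were apart at CT20. Those of bins 2 and 10 still overlapped at CT20, bin 10 with 0.0558% to 0.16% in control and 0.0852% to 0.261% in fasted livers. Bin 9 held 0.30% ± 0.072 (SD, n = 4) of the exon counts of Pcx in control and 0.226% ± 0.094 (SD, n = 4) in fasted livers at CT12. At CT20 it held 0.293% ± 0.084 (SD, n = 4) in control and 0.787% ± 0.18 (SD, n = 4) in fasted livers, and the groups did not overlap (0.202% to 0.369% against 0.599% to 0.97%). Bin 3 held 1.42% in control and 1.36% in fasted livers at CT12, and 1.37% and 0.773% at CT20. At CT16 the 4 fasted livers were spread widely for bin 9, from 0.0692% to 0.793%. The table gives no positions for its bins, so that they could not be placed on the start sites printed above. In Slc37a4, bins 3 and 4 fell by 0.51 and 0.57 relative to the gene and bin 24 rose by 0.92 (SE 0.26), but bin 24 held a mean of only 7.81 counts in fasted and 2.56 in control livers. In raw counts, bins 3 and 4 had means of 44.5 and 23.2 in control and 42.7 and 21.1 in fasted livers. Their mean counts were thus nearly alike while the level of the gene rose.

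**Figure D3:**
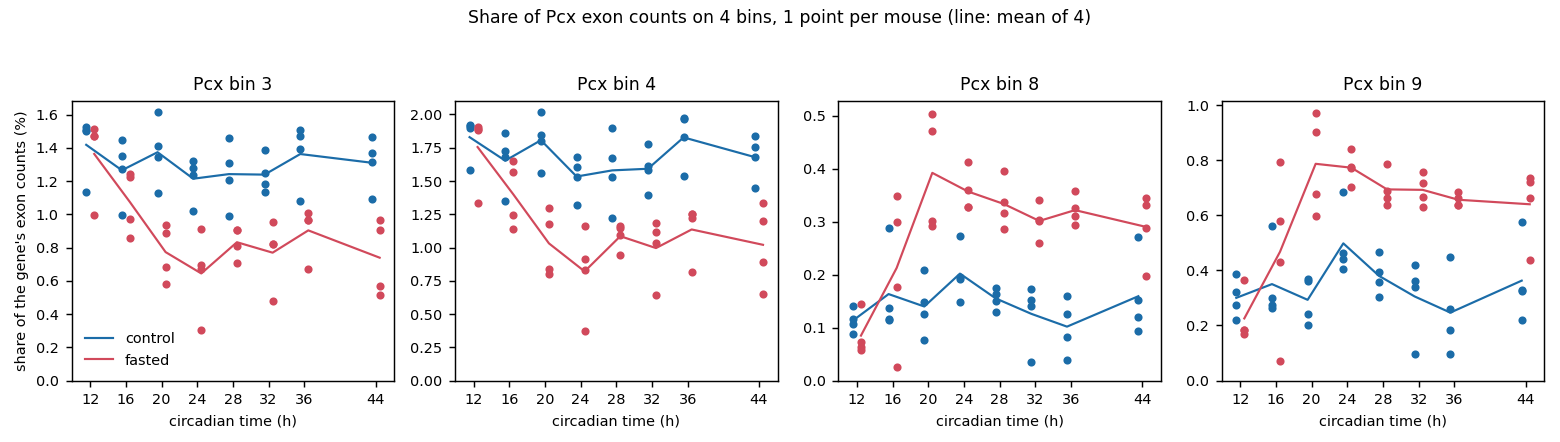
Share of the exon counts of Pcx on bins 3, 4, 8 and 9 in percent (vertical axes, from 0) against circadian time in h. Each point is 1 mouse, lines join the means of 4 mice, control in blue and fasted in red, and CT40 is left out. Control and fasted livers overlap at CT12, and at CT20 bin 3 averages 1.37% in control and 0.773% in fasted livers and bin 9 averages 0.293% and 0.787%.

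Fbp1 passed the edgeR test at none of the 9 times, only CT20 had an unadjusted p under 0.05 (0.0321), and its groups overlapped at all 9. Control means lay between 901 and 1239.8 CPM and fasted means between 863 and 1323 CPM from CT12 on. The difference farthest from 0 was -0.32 at CT20, where the control mice had 1261 and 1002 CPM in the females and 1181 and 814 CPM in the males. The fasted mice had 675 and 758 CPM in the females and 932 and 1089 CPM in the males, the females low and the males within the control range. Fbp1 at CT20 did pass as lower without female replicate 2 (-0.45, adjusted p = 0.0135), without fasted CT40 female 2 (-0.33, adjusted p = 0.0381) and in females alone (-0.66, adjusted p = 0.0496), and was 0.02 in males alone. At CT40 the fasted mice had 1166 and 592 CPM in the females and 1246 and 1317 CPM in the males, and the log2 difference was 0.00 with all mice and 0.22 (adjusted p = 0.249) without the second female.

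Of the coactivators, Ppargc1a, which is scarce in fed liver, had a mean effect close to that of Pck1. At CT12 control livers held 11.2 and 11 CPM in the females and 11.8 and 16.2 CPM in the males. Fasted livers of that time had 32.6 and 57.5 CPM in the females and 10.8 and 17.1 CPM in the males, with both females well above the controls, 1 male below them and 1 just above, and the difference of 1.01 did not pass (adjusted p = 0.13). The differences that passed ran from 1.28 at CT20 to 2.65 at CT44. At CT28 the difference was 0.86 (adjusted p = 0.065), the smallest of the 9, as for Pck1. At CT44 the control mice had 13 and 15.2 CPM in the females and 7.85 and 9.94 CPM in the males. In the fasted group the values were 149.6 and 57.3 CPM in the females and 33.4 and 62 CPM in the males, all above the controls but far apart among themselves. At CT40 the fasted mice had 43 and 91.3 CPM in the females and 42 and 45.3 CPM in the males, and without the second female the log2 difference of 2.33 became 2.03 (adjusted p = 2.12e-05).

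Crtc2 had the smallest mean effect among the 6 genes that passed. Its log2 differences lay between 0.31 at CT28 and 0.83 at CT40 (0.81 without fasted CT40 female 2), with an SE of 0.08 at a single time. At CT12 control livers held 32.5 and 26.7 CPM in the females and 36.5 and 38 CPM in the males. Their fasted counterparts had 43 and 47.5 CPM in the females and 44.6 and 47 CPM in the males, all above the controls. All 4 fasted mice exceeded all 4 control mice at 9 of 9 times, more often than for any other of the 7 genes. At a single time 3.11% to 15% of all genes separated in that direction. The share at all 9 times was not counted, so how unusual 9 of 9 is cannot be said. At CT28 the control mice had 40.5 and 41.6 CPM in the females and 43.6 and 44.3 CPM in the males. The fasted mice had 56.7 and 45.6 CPM in the females and 54 and 54 CPM in the males, and the lowest of them was close to the highest control. CRTC2 is known to be regulated through its protein, by phosphorylation and its place in the cell, which transcript counts do not show.

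**Figure D4:**
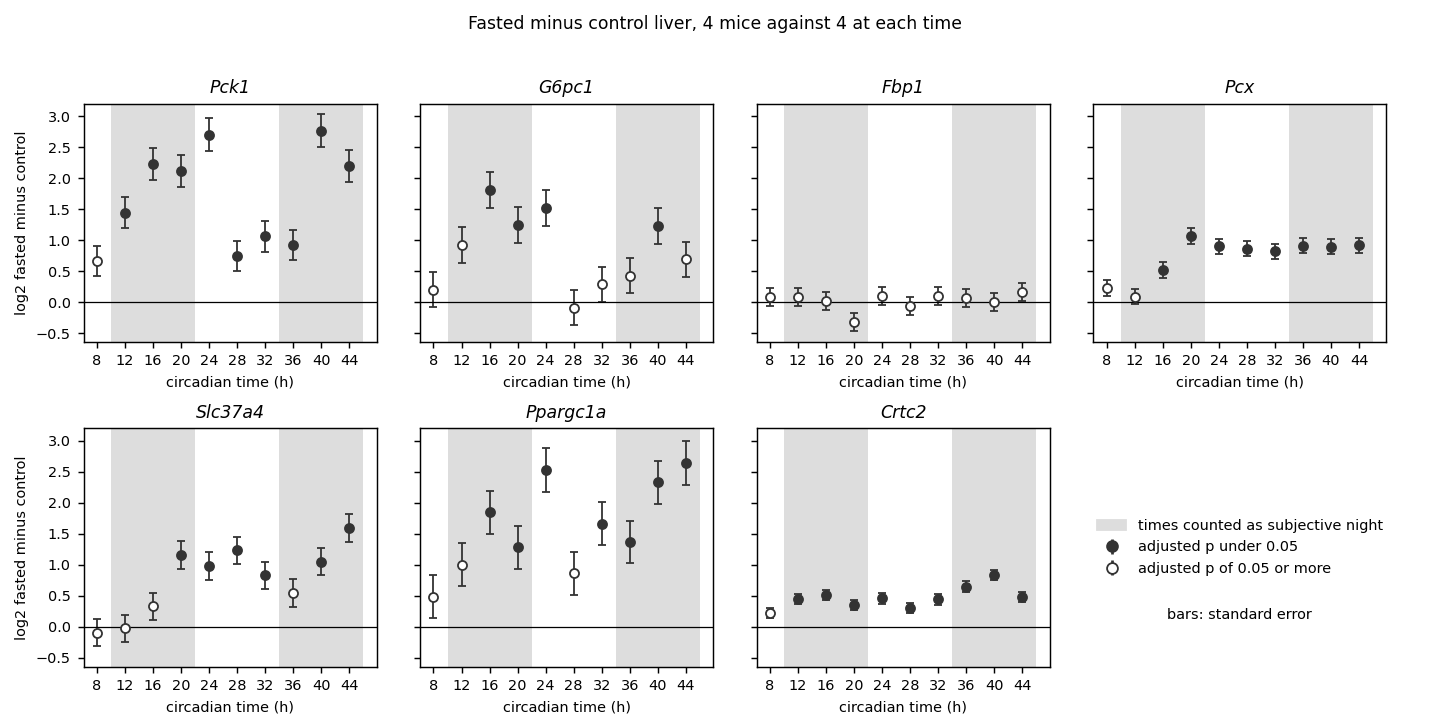
Log2 difference between fasted and control livers (vertical axis) against circadian time in h, with 4 mice against 4 at each time. Points carry their standard error, filled points have an adjusted p under 0.05, and grey bands mark the times counted as subjective night. Pck1 and Ppargc1a dip at CT28, to 0.75 and 0.86, G6pc1 falls to -0.09 there, and Pcx stays between 0.82 and 1.07 from CT20 on.

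In the joint test over the 9 times the effect changed with time in 6 of the 7 genes, with an adjusted p between 6.48e-06 for Pck1 and 0.0124 for Crtc2, and of 0.577 for Fbp1. Of all genes, 33.7% passed this test. Of the 6, only Pck1 passed in each of the 4 fits that left out a replicate, G6pc1, Pcx, Slc37a4 and Crtc2 passed in 2 each, and Ppargc1a in none. The call of Ppargc1a was also lost by limma-voom (adjusted p = 0.0763) and with no sex term (adjusted p = 0.0888), and that of Crtc2 with no low-count filter (adjusted p = 0.177) and with no sex term (adjusted p = 0.075). Whether the dependence was one of circadian phase was asked by setting 6 times of the subjective night (CT12, CT16, CT20, CT36, CT40 and CT44) against 3 of the subjective day (CT24, CT28 and CT32). Both sets have a mean of CT28, so that an effect growing evenly with the length of the fast gives no difference. An uneven course over the fast cannot be told apart from circadian phase, because the day times all lie in the middle of the fast. None of the 7 genes passed this edgeR test, against 8.27% of all genes, and Pck1 (0.44, adjusted p = 0.112), Crtc2 (0.15, adjusted p = 0.118) and G6pc1 (0.48, adjusted p = 0.139) came nearest, with unadjusted p-values of 0.0153, 0.0168 and 0.0219. By DESeq2, 0 of the 7 passed as well. The answer turned on dusk and dawn. Without CT12, CT36 and CT24, Pck1 had a night effect larger by 1.42 (SE 0.22, adjusted p = 4.33e-06) and G6pc1 by 1.14 (SE 0.25, adjusted p = 7.47e-04), against 8.68% of all genes that passed as larger. The same contrast gave 0.76 for Ppargc1a (adjusted p = 0.0662), 0.17 for Crtc2 (adjusted p = 0.0949), -0.05 for Fbp1, 0.01 for Pcx and 0.00 for Slc37a4. At dawn, CT24, Pck1, G6pc1 and Ppargc1a had effects of 2.70, 1.52 and 2.53, and at CT28 of 0.75, -0.09 and 0.86. For Ppargc1a the groups overlapped at CT24, with 8.82 to 77.1 CPM in fasted and 4.34 to 10.3 CPM in control livers. Its effect there was 1.70 to 2.96 without single replicates.

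Control livers themselves had a 24 h rhythm in 5 of the 7 genes, against 41.8% of 20114 genes tested. The cosine fitted to Pck1 peaked at CT8.75 with a peak-to-trough log2 difference of 1.43 (adjusted p = 2.02e-05), late in the rest phase. Slc37a4 peaked at CT12.6 with 1.36 (adjusted p = 1.65e-09) and Ppargc1a at CT12.6 with 0.70 (adjusted p = 0.00869), both at the onset of the active phase. Fbp1 (CT13.4, 0.29) and Crtc2 (CT4.59, 0.24) had rhythms of small size, and G6pc1 (adjusted p = 0.968) and Pcx (adjusted p = 0.679) did not pass. In fasted livers, with an even change over time allowed for, G6pc1 passed with a peak at CT18.8 and 1.14 (adjusted p = 1.08e-04), Slc37a4 at CT13.7 with 0.50 (adjusted p = 0.0191) and Fbp1 at CT11.2 with 0.40 (adjusted p = 0.0233), against 47.1% of 19933 genes. Without fasted CT40 female 2, the same 3 genes passed in fasted livers, with adjusted p-values of 7.25e-05 for G6pc1, 0.0045 for Fbp1 and 0.0416 for Slc37a4. The fasted fit covered CT12 to CT44 only. In it, a 24 h rhythm and an uneven course of the response to the fast cannot be told apart.

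The rhythms of fasted and control livers differed in Pck1 (adjusted p = 1.72e-04), Slc37a4 (adjusted p = 0.0020) and G6pc1 (adjusted p = 0.00206), against 23.2% of 20965 genes. In Pck1 the peak-to-trough difference was 1.60 in control livers fitted over the same times and 0.38 in fasted livers, where the rhythm did not pass (adjusted p = 0.15). In Slc37a4 it was 1.35 and 0.50. In G6pc1 it was 0.22 in control livers, where it did not pass (adjusted p = 0.711), and 1.14 in fasted livers. Here too, a rhythm in fasted livers cannot be told apart from an uneven course of the response to the fast. For Ppargc1a the test of the difference gave an adjusted p of 0.122, for Pcx 0.0792, for Crtc2 0.0731 and for Fbp1 0.736. In 4 fits that each left out a replicate, the control rhythm passed in 4 for Pck1 and Slc37a4, 3 for Crtc2, 2 for Ppargc1a and 1 for Fbp1. The fasted rhythm passed in 4 for G6pc1, 2 for Slc37a4 and 1 for Fbp1, and the difference in 4 for Pck1 and G6pc1 and 3 for Slc37a4.

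Ordered by mean level, neighbouring times were seldom apart. Among the 10 times of each treatment, the mice of neighbours in the order overlapped in 9 of 9 pairs for each gene, except for 8 of 9 in fasted Pcx and in control Slc37a4. Neighbours in this order have the closest means, so their overlap leaves the order unsettled and does not show whether times differ. Likeness of pattern was measured as Pearson's r over the 20 means of treatment and time of log2 CPM, each of 4 libraries, a description across groups that share the fast. Among the 7 genes, Pck1 and Ppargc1a were the most alike (r = 0.889), and Fbp1 had an r of 0.0158 to 0.445 with the others. Among 11576 genes with a mean log2 CPM of at least 1, Pck1 was followed most closely by Abca6 (r = 0.96), 4833420G17Rik (r = 0.958) and Slc7a2 (r = 0.958). For G6pc1 these were Slc25a25 (r = 0.94), Cpeb2 (r = 0.936) and Irf2bp2 (r = 0.90), and for Ppargc1a Fbxo31 (r = 0.957), Baiap2l1 (r = 0.957) and Ogdh (r = 0.952).

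The same phases of the second night, 24 h further into the fast, were set against those of the first. The effect was larger in the second night in Ppargc1a by 0.74 (SE 0.28, adjusted p = 0.0497), in Slc37a4 by 0.58 (SE 0.18, adjusted p = 0.0168), in Pcx by 0.35 (SE 0.10, adjusted p = 0.0094) and in Crtc2 by 0.22 (SE 0.07, adjusted p = 0.0187), 4 of 7 against 9.91% of all genes. Pck1 had 0.03 (adjusted p = 0.979), G6pc1 -0.54 (adjusted p = 0.0922) and Fbp1 0.15 (adjusted p = 0.391). These calls were not firm. With CT12 and CT36 left out, none of the 7 passed edgeR's test, against 14.3% of all genes, although 3 had an unadjusted p under 0.05 (0.00886 for Ppargc1a, 0.00951 for Crtc2 and 0.0109 for Slc37a4), and the value of Pcx went from 0.35 to 0.11 (adjusted p = 0.598). Without fasted CT40 female 2, Ppargc1a had 0.64 and no longer passed (adjusted p = 0.0987), while Pcx (0.37), Slc37a4 (0.48) and Crtc2 (0.21) still did. With the replicate number as a block, Ppargc1a missed as well (0.73, adjusted p = 0.0561).

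Within the fit of all 80 libraries, each of the 6 genes that passed also did so for the females and for the males, against 27.7% and 22.1% of all genes as higher. The effect differed between the sexes in G6pc1, with 1.18 in females (SE 0.14) and 0.61 in males (SE 0.14), a difference of 0.57 (SE 0.19, adjusted p = 0.0392). It also did so in Fbp1, with -0.13 in females (SE 0.07, adjusted p = 0.0922) and 0.17 in males (SE 0.07, adjusted p = 0.0391), a difference of -0.30 (SE 0.10, adjusted p = 0.0325). Of all genes, 12.4% passed this test. The difference in G6pc1 was lost in each of the 4 fits without a replicate, and that in Fbp1 in 2 of 4. Without fasted CT40 female 2 it was 0.57 for G6pc1 (adjusted p = 0.0525) and -0.25 for Fbp1 (adjusted p = 0.048). For Pck1 (0.35, adjusted p = 0.157), Slc37a4 (0.38, adjusted p = 0.0735), Ppargc1a (0.34, adjusted p = 0.368), Crtc2 (0.09, adjusted p = 0.348) and Pcx (-0.04, adjusted p = 0.841) the test did not pass.

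Of 8 reversible enzymes that gluconeogenesis shares with glycolysis, 3 rose and Mdh1 fell, by 0.08, in the mean effect, and 4 did not pass, with a median of 0.02, against 29.5% of all genes that passed as higher and 32.9% as lower. The call of Mdh1 was lost with DESeq2 size factors (adjusted p = 0.0501), upper quartile scaling (adjusted p = 0.0715), no low-count filter (adjusted p = 0.141) or no sex term (adjusted p = 0.0718), in 2 of 4 fits without a replicate and without fasted CT40 female 2 (adjusted p = 0.0621). The effects of those that rose were 0.27 for Mdh2, the mitochondrial malate dehydrogenase, 0.14 for Tpi1, triose phosphate isomerase, and 0.12 for Gapdh, glyceraldehyde-3-phosphate dehydrogenase. Without single replicates the effect was 0.12 to 0.15 for Tpi1 and 0.08 to 0.15 for Gapdh. The calls of Tpi1 and Gapdh did not hold in every such fit. The gene lists were chosen with earlier results of these data known, and some genes were left out of them. Counts over the lists are therefore descriptions and no independent support. Of 13 genes that bring in substrates, all 13 rose, against 29.5% of all genes, with a median of 0.37 against -0.02. Largest were Got1 (1.72, SE 0.13), the cytosolic aspartate aminotransferase, Tat (1.03, SE 0.11), tyrosine aminotransferase, and Gpt2 (0.93, SE 0.05), the mitochondrial alanine aminotransferase. Of 5 genes listed as glycolytic counterparts, 4 fell, against 32.9% of all genes, and Pfkfb1 (0.25) rose, with a median of -0.38. The smallest fall was that of Slc2a2, a glucose transporter (-0.22, adjusted p = 0.0233 by edgeR). It was -0.28 to -0.16 without single replicates, and its call did not hold in every fit. Pklr, the liver pyruvate kinase, had -1.89 (SE 0.15), Gckr -0.51 (SE 0.05) and Pfkl, the liver phosphofructokinase, -0.38 (SE 0.04).

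Other members of the same gene families did not all follow. Of 6 tested, Fbp2 (1.94, SE 0.26), Ppargc1b (1.00, SE 0.08) and G6pc3 (0.19, SE 0.04) rose, against 29.5% of all genes, while Pck2 had 0.00, Crtc3 -0.03 and Crtc1 -0.07 (adjusted p = 0.05), and G6pc2 had too few counts. Of 13 transcription factors and hormone receptors with their adaptors, 10 rose, against 29.5% of all genes, led by Irs2 (1.63), Cebpb (1.09) and Nr4a1 (0.95). Gcgr, the glucagon receptor, was among them but lost its call without male replicate 1 (adjusted p = 0.0517), without male replicate 2 (adjusted p = 0.172), in females alone (adjusted p = 0.232) and with no sex term (adjusted p = 0.0809). Creb1 (0.00) did not pass, and Nr3c1, the glucocorticoid receptor, fell by 0.46 and Cebpa by 0.47. Of 11 kinases and repressors acting on the coactivators, 6 rose and 3 fell, against 29.5% and 32.9% of all genes. Those that rose were led by Trib3 (1.60), a pseudokinase, Sik1 (0.79) and Sik2 (0.32), kinases that phosphorylate CRTC2. Prkaa1, Prkaa2 and Kat2a fell, by 0.07, 0.23 and 0.21, and Cry1 (-0.07) and Nr0b2 (-0.23) did not pass. The call of Prkaa1 was lost with DESeq2 size factors (adjusted p = 0.0588), upper quartile scaling (adjusted p = 0.0707), no low-count filter (adjusted p = 0.228) or by DESeq2 (adjusted p = 0.0549), in males alone (adjusted p = 0.539) and in 2 of 4 fits without a replicate. Genes outside the 3 largest of each list were named after their values were seen.

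**Figure D5:**
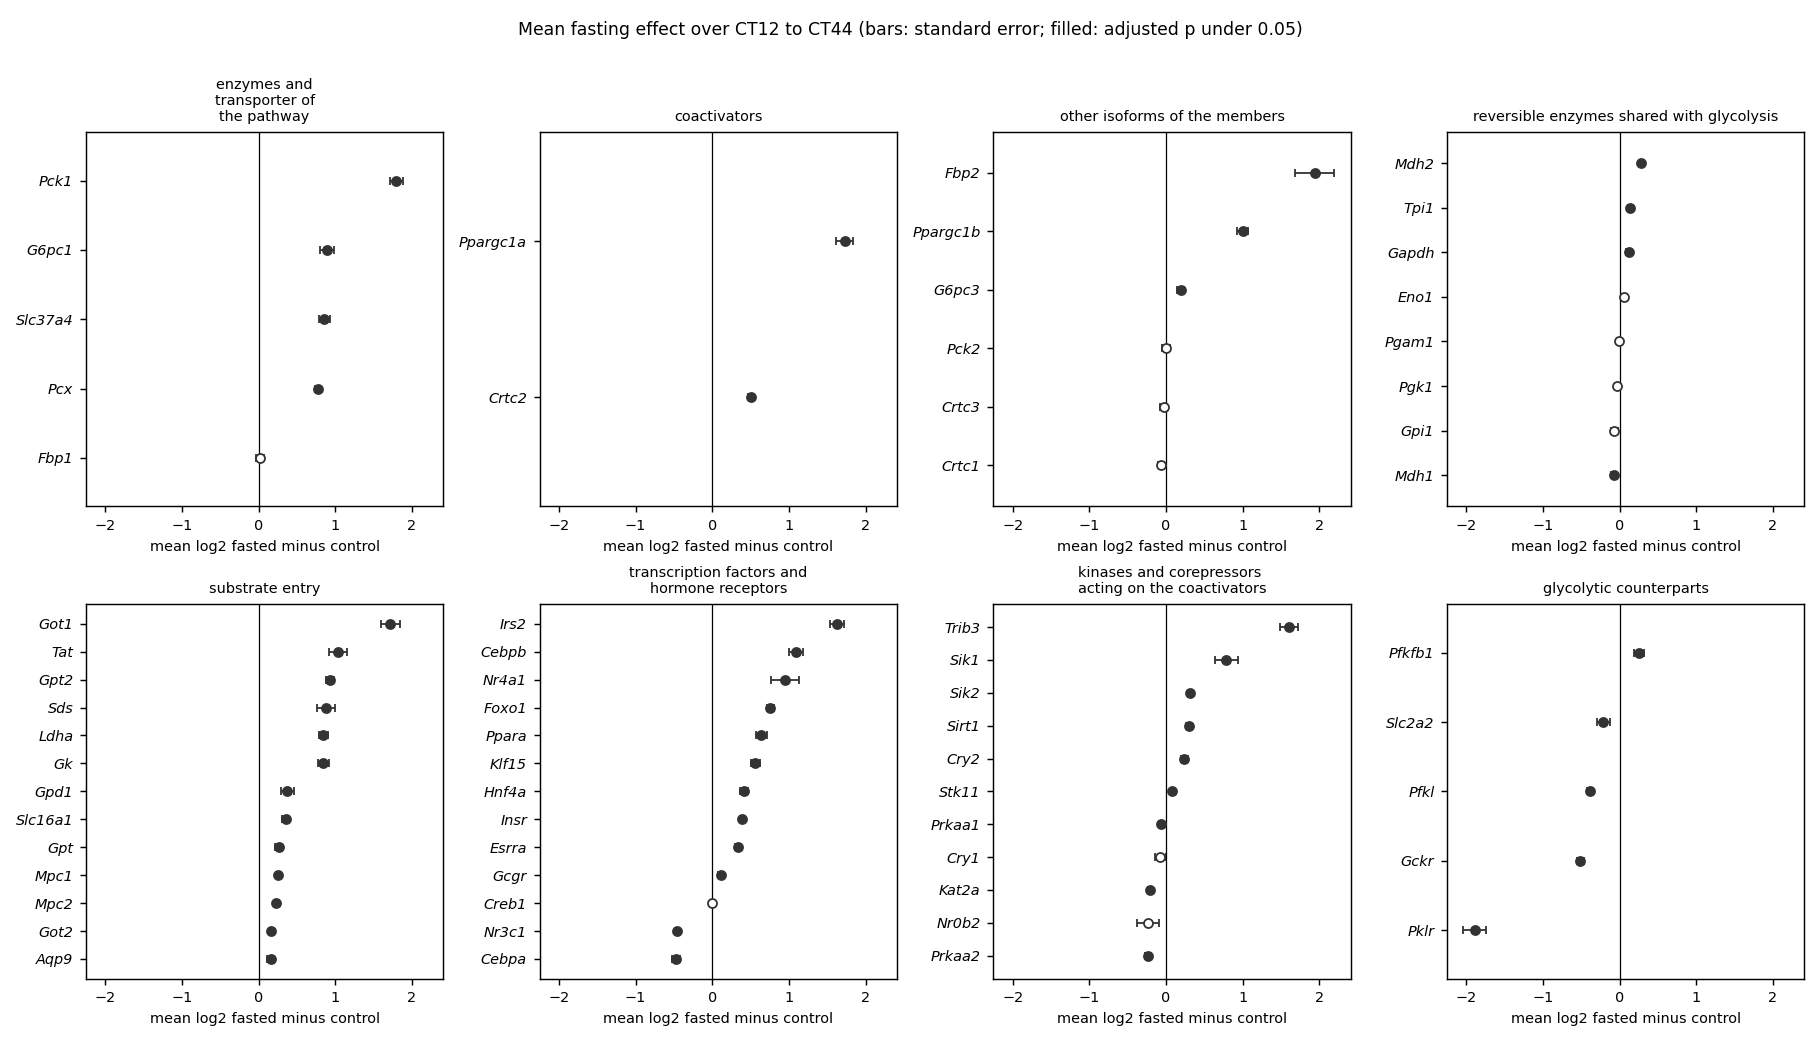
Mean log2 difference between fasted and control livers over CT12 to CT44 (horizontal axis) for the genes of 8 lists (1 panel each), with the standard error; filled points have an adjusted p under 0.05. All 13 genes of substrate entry lie above 0, from 0.16 to 1.72, 4 of the 5 enzyme and transporter genes lie at 0.78 or more with Fbp1 at 0.02, and Pklr lies at -1.89.

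Markers of other liver cells moved with the fast as well, and their counts stand beside 29.5% of all genes that passed as higher, 32.9% as lower and 62.5% in either direction. Of 5 Kupffer cell and macrophage markers 4 fell, with a median of -0.35, and their summed level was 213 to 737 CPM in control and 139 to 450 CPM in fasted livers. Of 5 cholangiocyte markers 4 fell, with a median of -0.46, and their summed level was 24.6 to 66.0 CPM in control and 6.78 to 50.3 CPM in fasted livers. Of 5 hepatocyte markers 2 rose, 2 fell and 1 did not pass, with a median of 0.03 and summed levels of 58603 to 106097 CPM in control and 70341 to 123638 CPM in fasted livers. Of 5 endothelial markers 2 rose and 2 fell (median -0.03), of 5 stellate cell markers 2 rose and 3 fell (median -0.18), and of 5 red blood cell markers 2 fell (median -0.17). Of the pancreas and fat markers 1 of 4 tested fell, namely Cela1 (-1.25, SE 0.08). The part of these shifts in the effects of the 7 genes was not tested.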

How the data were processed

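The deposited tables hold raw counts per gene and per exon bin for 80 libraries, made by the authors from a stranded poly(A) kit. Per the labels, reads were processed with Trimmomatic, HISAT2 and DESeq2 on GRCm39, and the versions, the counting program and the annotation are not given in the sources used here. The deposited table of normalised counts, in which each library's raw counts are divided by a single factor, was not used.

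Gene counts were tested with edgeR 4.0.16 (R 4.3.3, limma 3.58.1) by the quasi-likelihood test with TMM scaling and filterByExpr, fitting a mean to every combination of treatment, time and sex, and Benjamini-Hochberg adjustment over all 21187 genes tested. Log2 CPM used a prior count of 2, and the SE is the log2 difference divided by the root of F. Rhythms were tested as a 24 h cosine and sine with sex as a term. The rhythm of fasted livers and the difference between treatments used CT12 to CT44 and a linear change. Exon usage was tested with diffSpliceDGE and Simes' method after 5 rows that name no exon, 8.28% to 25.9% of each column, were left out. The scripts were tested on simulated data. Libraries are separate mice, and the smallest chi-square per degree of freedom between 120 pairs of replicates was 14.8. Libraries held 25534901 to 59927771 counts, median 42303883, and a difference below the SE printed beside it cannot be resolved at this depth and number of mice.

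The members and the gene lists were chosen with earlier results of these data known. Text names all 7 members and, from each list, the 3 genes with the largest absolute mean effect among those that passed. Some genes of the lists are not reported here and were left out of their counts. No exon of another gene overlapped a member's exons in GENCODE M21. Alternatives were DESeq2 1.42.0 as a test and for size factors, upper quartile scaling, no filter, limma-voom, the replicate number as a block, each replicate or single libraries left out, each sex alone, no sex term and other sets of times. Subtracting the CT8 difference and leaving out fasted CT40 female 2 were chosen after the data were seen. Replicate numbers did not pair the mice: over 20 pairs of the same number, sex and time, the correlation of deviations was -0.056 to 0.249, and over 0.1 in 1.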

Additional observations from a re-analysis of the deposited data

Results flagged for a closer look

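In 8 of 140 groups of 4 mice, 1 mouse stood apart from the other 3 by Dixon's test at the 95% level, where chance gives about 7. The number given is the gap to the nearest mouse divided by the range of the group. Fasted CT40 female 2 did so in 3 genes, with 630.6 CPM of Slc37a4 against 285 to 309.7 CPM (0.894), 91.3 CPM of Ppargc1a against 42.0 to 45.3 CPM (0.902) and 592 CPM of Fbp1 against 1166 to 1317 CPM (0.847). Control CT28 female 1 had 316 CPM of G6pc1 against 456 to 477 CPM (0.892), and control CT28 female 2 had 54.3 CPM of Slc37a4 against 103 to 117 CPM (0.830). Control CT8 female 2, the library rich in Rn18s-rs5, had 612 CPM of Fbp1 against 992 to 1063 CPM (0.874), and control CT44 female 2 had 1053 CPM of Fbp1 against 931 to 941 CPM (0.907). Control CT12 male 2 had 16.2 CPM of Ppargc1a against 11.0 to 11.8 CPM (0.832).

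The fasting effect differed between females and males by 0.57 on the log2 scale in G6pc1 and by -0.30 in Fbp1, by edgeR's test of the difference itself. Both sexes had a higher G6pc1 level in fasted livers, by 1.18 in females and 0.61 in males. The effect of Fbp1 was -0.13 in females, where it did not pass edgeR's test (adjusted p = 0.0922), and 0.17 in males. Neither difference kept its call in every fit. Without fasted CT40 female 2, that of G6pc1 was 0.57 and no longer passed (adjusted p = 0.0525). Without single replicates the differences were 0.45 to 0.72 in G6pc1 and -0.33 to -0.25 in Fbp1.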

How the results depend on the processing

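The mean effects of Pck1, Pcx, Slc37a4, Ppargc1a and Crtc2 kept their direction and their call under every alternative run. That of G6pc1 did so except with the CT8 difference subtracted (0.69). The uncalled Fbp1 was 0.17 and called in males alone, -0.13 in females alone, -0.0719 with CT8 subtracted and -0.0027 to 0.0288 without single replicates. A fit without a replicate leaves 1 mouse of that sex in each group, which is assumed to vary like the rest.

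The number of the 7 genes called moved in these fits, as did that of all genes, whose range is given below. The share of all genes in the same fit is not given, so these counts show nothing particular to the 7 genes. With no filter, adjusted p moved far more than the effects, in either direction. Ppargc1a at CT12 had 1.01 in both fits (edgeR adjusted p = 0.13 and, with no filter, 3.68e-15). Crtc2 at CT28 had 0.31 and 0.29 (edgeR adjusted p = 0.00558 and 0.069). The cause was not tested. The night minus day contrast called 2 with no filter, 2 without dusk and dawn and 0 to 1 without single replicates. The second minus first night contrast called 2 in males alone, 0 in females alone, 2 with no sex term, 0 without the dusk times and 0 to 2 without single replicates. The sex difference called 5 with no filter, 1 without fasted CT40 female 2 and 0 to 2 without single replicates. The joint test over times called 2 in either sex alone and 1 to 5 without single replicates. CT8 called 2 with no filter and 0 to 1 without single replicates. CT12 called 4 with no filter, 0 in males, 4 in females, 0 with CT8 subtracted and 0 to 2 without single replicates. CT16 called 2 with CT8 subtracted, CT28 2 in females and 2 to 4 without single replicates, and CT32 3 in males, 2 in females and 3 to 5 without single replicates. The control rhythm called 3 in males, 2 in females and 2 to 5 without single replicates. The fasted rhythm called 5 with no filter, 1 in females and 1 to 3 without single replicates, and the difference of rhythms 1 in males.

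Values that had not passed and changed sign are these, in log2; the cause was not tested. Fbp1 for night minus day was -0.144 to 0.0639 without single replicates. Pcx for night minus day was 0.00809 without dusk and dawn. Slc37a4 for night minus day was 0.00447 without dusk and dawn. Ppargc1a for night minus day was -0.275 in males and -0.0602 to 0.263 without single replicates. Pck1 for second minus first night was -0.0506 by limma-voom, -0.0438 without fasted CT40 female 2, -0.516 in females and -0.162 to 0.188 without single replicates. G6pc1 at CT8 was -0.0625 without control CT8 female 2, -0.653 in females and -0.464 to 0.763 without single replicates. Fbp1 at CT8 was -0.0782 without control CT8 female 2, -0.112 in males and -0.105 to 0.342 without single replicates. Slc37a4 at CT8 was -0.446 to 0.292 without single replicates. Pcx at CT12 was -0.138 with CT8 subtracted. Slc37a4 at CT12 was 0.0973 in females, 0.0713 with CT8 subtracted and -0.0901 to 0.0454 without single replicates. Ppargc1a at CT12 was -0.0021 in males. Fbp1 at CT16 was -0.0293 in females, -0.078 with CT8 subtracted and -0.0903 to 0.107 without single replicates. Fbp1 at CT20 was 0.0184 in males. Fbp1 at CT24 was -0.182 in females and -0.0218 to 0.212 without single replicates. G6pc1 at CT28 was 0.0577 in females and -0.432 to 0.147 without single replicates. Fbp1 at CT28 was 0.144 in males and -0.153 to 0.00671 without single replicates. G6pc1 at CT32 was -0.384 in males. Fbp1 at CT36 was -0.0825 in females and -0.0249 to 0.182 without single replicates. Fbp1 at CT40 was -0.0202 with no filter, -0.040 by limma-voom, -0.000276 with the replicate block, -0.313 in females and -0.32 to 0.272 without single replicates. Pck2 in the mean was -0.00576 with no filter, -0.00328 by limma-voom, -0.0253 in males and -0.0227 to 0.00589 without single replicates. Crtc1 in the mean was 0.0136 in females. Crtc3 in the mean was 0.042 in females and -0.103 to 0.043 without single replicates. Pgam1 in the mean was 0.00484 with DESeq2 size factors, 0.00819 with upper quartile scaling, 0.00495 by DESeq2, 0.00256 without fasted CT40 female 2, 0.0882 in females and -0.0152 to 0.000577 without single replicates. Creb1 in the mean was 0.0045 with DESeq2 size factors, 0.00762 with upper quartile scaling, 0.00458 by DESeq2, 0.102 in males (where it passed, adjusted p = 0.0101) and -0.0364 to 0.023 without single replicates. Cry1 in the mean was 0.0125 in males.

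Over all genes, these counts of calls moved by over 1.5 times between the lowest and highest alternative (the count as reported stands in brackets): night minus day 228 to 2202 (1752), second minus first night 1449 to 4899 (4483), the sex difference 238 to 3222 (2621), the joint test over times 1186 to 7628 (7130), CT8 0 to 2123 (282), CT12 0 to 1158 (340), CT16 1952 to 5303 (4955), CT20 4401 to 8085 (7757), CT24 2001 to 5406 (5099), CT28 1807 to 4822 (4448), CT32 1198 to 4123 (3751), CT36 2390 to 5992 (5672), CT40 5072 to 8705 (8459), CT44 4545 to 8598 (8355), control rhythm 4692 to 8790 (8417), fasted rhythm 4082 to 10176 (9395), difference rhythm 1560 to 5396 (4858), exon usage 887 to 2018 (1647). The replicate number as a block lost the call of Ppargc1a between the nights (0.73, adjusted p = 0.0561) and changed no other call of the 7 genes.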
